A study of Homo sapiens with 24 samples.

Results

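The effect of a hairpin against PTPN6 was measured in THP1 macrophages with an intact CD33 gene, by setting the 6 libraries labelled WT_shPTPN6 against the 6 labelled WT_shCTRL across all genes with enough counts. These 12 libraries were chosen by their labels alone and are 12 of the 23 analysed here. THP1 is a human monocytic leukaemia line that becomes an adherent macrophage on treatment with the phorbol ester PMA. The series crosses a CD33 knockout with the same hairpin, and the 11 libraries of the knockout line (6 CD33KO_shCTRL, 5 CD33KO_shPTPN6) entered the model fit and 1 closing comparison. Both wild-type groups carry a pLKO.1 lentivirus, empty in WT_shCTRL and with the hairpin in WT_shPTPN6. Virus was left on the monocytes for 24 hours, a rest of 48 hours followed, and puromycin at 1 µg/ml removed cells without the vector. All cells then received 10 ng/ml PMA for 48 hours and a further 48 hours in medium free of it, so every group is transduced, selected and differentiated. Only 1 hairpin was used, and the control vector carries none, so effects of this hairpin on other transcripts cannot be told apart from effects of losing PTPN6. Nothing in the labels ties the 6 replicates to separate cultures, and p-values therefore measure only the spread between these libraries.

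PTPN6 encodes SHP-1, a tyrosine phosphatase of blood cells with paired SH2 domains. Those domains dock on phosphorylated immunoreceptor tyrosine-based inhibitory motifs (ITIMs) of receptors such as CD33, SIRPA and the LILRB family, and the docked enzyme removes phosphate from nearby kinases, adaptors and cytokine receptors. In macrophages it is known as a brake on Src and Syk kinases, on growth factor receptors such as CSF1R and on the Janus kinases (JAKs) that carry interferon signals to the STAT transcription factors.

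The sequence that the hairpin matches is shown because every result below rests on it. It spans 21 bases of chromosome 12, chr12:6959963-6959983 on the plus strand (GRCh38), in coding exon 12 of 16 in the full-length PTPN6 transcripts, and all 7 annotated transcripts that hold it exactly belong to PTPN6. Capitals mark the whole target.
shPTPN6 target: CGACATGCTCATGGAGAACAT

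Library totals ran from 4170191 to 5700712 counts in WT_shCTRL and from 3318001 to 6269304 in WT_shPTPN6. In these libraries 31634 genes had a count, and 13098 genes passed a filter over all 23 libraries and were tested. The share of counts from the mitochondrial genome was 5.864 to 6.539% in controls and 7.85 to 8.697% after knockdown, and that of ribosomal protein genes 6.166 to 7.256% and 9.173 to 9.474%. The first principal component of the 12 libraries held 72.1% of the variance and separated the groups. Replicates 2 and 5 of WT_shPTPN6 lay apart from the rest on the second, which held 3.78%. No pair of replicates agreed within sampling noise. Levels below are TMM-scaled CPM, which express counts relative to the size of each library, and changes are log2 fold changes ± SE of WT_shPTPN6 over WT_shCTRL. A gene is called when its adjusted p from the edgeR quasi-likelihood test is under 0.05, and "rose" and "fell" are used of called genes alone. Among the called genes named below the groups of 6 overlapped for AIM2, CGAS, CSF2RA, DUSP6, ERAP2, IRF9, LILRA2, MS4A6A, MS4A7, NFKBIA, SIGLEC9, SLC40A1, TNF, TYK2 and TYROBP. In the others they were separate, except IFNAR1 and IFNGR1, for which this is not given. With 3' end counting a gene is read near its end whatever its length, so levels can be compared between genes only roughly. The counting is not stated to use strand, so reads of a gene and of an annotated gene that overlaps it cannot be told apart; of the genes named below this touches ACADM, ADA, AHRR, BMP8B, CAP1, CCNB2, CD163, CD68, CTSW, DMP1, ERAP2, FGL2, GAS6, HAVCR2, HLA-B, IFIT1, IFNGR2, IRF1, KRT7, LRP1, MT-ATP6, MT-CO3, PARP9, PTPN11, SGSH, STAT6, TNFRSF10A and TNFRSF10B. Fewer cells of a type and less RNA per cell cannot be told apart in bulk samples, nor can a shift in the cells that survived selection and a change within each cell.

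PTPN6 (ENSG00000111679, chr12:6946468-6961316) itself stood at 35.8, 43.9, 49.5, 46.8, 39.5, 52.4 CPM in WT_shCTRL replicates 1 to 6 and at 10.5, 8.73, 9.33, 12.8, 11.1, 10.96 CPM in WT_shPTPN6. The mean fell by 76.3%, and every knockdown library lay below every control (log2 fold change -2.08 ± 0.11, edgeR adjusted p = 2.07e-33; exact permutation p = 0.00216, two-sided, the smallest these groups allow). CD33 (ENSG00000105383), the ITIM receptor that gives the study its other arm, ranged over 39.7 to 48.5 CPM (median 46.3) in controls and 81.3 to 94.9 CPM (median 88.05) after knockdown. The groups did not overlap, and CD33 rose (0.97 ± 0.07, edgeR adjusted p = 4.95e-23).

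The libraries carried the macrophage markers chosen to check the label. CD68, CD14, ITGAM, ITGAX, SPI1, CSF1R, LYZ, PTPRC, CD33 and TYROBP were detected in all 12 libraries, at control means from LYZ at 26.1 CPM to TYROBP at 964 CPM. The leukocyte phosphatase PTPRC did not pass the test (141 ± 7.11 and 136 ± 13.01 CPM in controls and knockdown). The other 9 rose. Markers of other lineages were few. Of 18 erythroid and megakaryocyte genes 4 had enough counts, none was called, and the summed level was 14.1 to 22.5 CPM (median 17.9) in controls and 12.2 to 20.7 CPM (median 17.4) after knockdown, with GATA1 and KLF1 at 0 in all 12 libraries. Of 29 lymphoid genes 9 were tested, and their sum of 806 to 939.5 CPM (median 881) in controls, 464 to 561 CPM (median 505) after knockdown, was mostly GNLY, TRAC and CD4, while CD3D, CD3E and MS4A1 had means under 0.3 CPM in both groups. The sum over 15 epithelial and HEK-293 genes was 89.7 to 115 CPM (median 102) and 84.1 to 118 CPM (median 91.6), with EPCAM, KRT18 and KRT19 under 0.3 CPM, and that over 16 fibroblast and endothelial genes, 274 to 303 CPM (median 290.4) and 503 to 567 CPM (median 525), was mostly PECAM1 and ENG, which macrophages express too. Counts called higher and lower were 2 and 3 of 9 lymphoid, 1 and 4 of 5 epithelial and 2 and 3 of 11 fibroblast and endothelial genes, and their part in the results below was not tested.

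Knockdown of PTPN6 changed a large share of the measured transcriptome, 3957 genes upward (30.2%) and 3984 downward (30.4%), 60.6% in all. These shares, and the median log2 fold change of 0 over all tested genes, are the background for every list count below. Larger changes leaned downward. At least a 2-fold change was found in 623 genes that rose (4.76%) and 1215 that fell (9.28%), and at least 4-fold in 120 and 376. For 4904 genes (37.4%) the 6 libraries of one group all lay above the 6 of the other. Many calls are thus small changes seen at high precision: 88.9% of the 99 genes above 1000 CPM were called, but 13.1% moved 2-fold or more. Of the 2117 genes between 1 and 5 CPM 45.9% were called and 27.4% moved 2-fold. The filter admits a gene on the counts of any fitted group, those of the knockout line included. A gene near 0 in one wild-type group thus enters only through another group. Wild-type libraries alone left 12658 genes to test. Without replicate 2 of WT_shPTPN6 3869 genes rose and 3902 fell, and without replicate 5 3900 and 3930.

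Ranked by log2 fold change among genes of at least 5 CPM whose groups did not overlap, the list of falls began with NRAP, an anchoring protein of striated muscle. NRAP ranged over 22.3 to 28.3 CPM (median 25.6) in controls and 0 to 0.324 CPM (median 0.261) after knockdown, where 5 counts remained in all (-6.83 ± 0.26, edgeR adjusted p = 8.12e-46). GRM4, a metabotropic glutamate receptor, went from 71.3 to 87.4 CPM (median 75.97) to 0 to 1.41 CPM (median 0.778) (-6.53 ± 0.17). The low-affinity neurotrophin receptor NGFR and HAND2, a transcription factor of heart development, lost most of their transcripts too (-5.37 ± 0.28 and -5.34 ± 0.25). HOMER2, a scaffold of neuronal synapses, fell from 104 to 118 CPM (median 113) to 1.504 to 3.91 CPM (median 2.75). DMP1, a phosphoprotein of mineralized matrix (-5.87 ± 0.17), and MMP13, a collagenase (-5.57 ± 0.35), belong to bone. MGP, which inhibits calcification, had the highest control level of the set, 393 to 444 CPM (median 415), and stood at 9.38 to 11.4 CPM (median 10.7) after knockdown. Every knockdown library was below every control (-5.29 ± 0.07, edgeR adjusted p = 1.51e-90).

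The remaining falls of this set were GNLY, KLF5, IFI27 and AKR1C2. GNLY, the cytolytic protein granulysin of killer lymphocytes, went from 294 to 395 CPM (median 353) to 6.83 to 10.2 CPM (median 9.26) (-5.28 ± 0.08), without overlap. KLF5, a zinc finger transcription factor, went from 65.2 ± 2.36 to 1.82 ± 0.618 CPM (-5.07 ± 0.14), and the steroid reductase AKR1C2 from 17.1 ± 3.13 to 0.516 ± 0.314 CPM (-5.00 ± 0.26). Just outside the 12 were DIRAS2 at -4.72 and SYTL2 at -4.68. PNOC, the precursor of the neuropeptide nociceptin, missed the ranking with -4.38 ± 0.05 but was far more abundant, at 1548 to 1656 CPM (median 1570.2) in controls against 66.8 to 83.5 CPM (median 76.5) after knockdown.

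The largest rises included secreted and surface proteins of monocytes. BPI, a granule protein that binds bacterial endotoxin, had 2 counts in all 6 controls together and 277 after knockdown, a ratio of 160 with a 95% exact interval of 43.8 to 1325 for counting error alone. FCN1, a lectin of circulating monocytes that activates complement, ranged over 1.04 to 1.85 CPM (median 1.49) in controls and 41.5 to 47.8 CPM (median 46.2) after knockdown (4.91 ± 0.16, edgeR adjusted p = 9.08e-51). IL1R2, the decoy receptor for interleukin 1, went from 2.56 to 4.501 CPM (median 3.11) to 79.7 to 109 CPM (median 84.7) (4.69 ± 0.12, edgeR adjusted p = 6.67e-62). CYP1B1, a cytochrome P450 induced through the aryl hydrocarbon receptor, went from 5.62 to 9.76 CPM (median 7.503) to 152 to 174 CPM (median 160.5) (4.44 ± 0.09). CYP27A1, which makes 27-hydroxycholesterol, went from 0.842 ± 0.3603 to 16.1 ± 1.98 CPM (4.16 ± 0.24). The ranking took only genes whose groups did not overlap.

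CDCP1, a membrane protein phosphorylated by Src, ranged over 7.404 to 10.9 CPM (median 9.29) in controls and 142 to 167 CPM (median 149) after knockdown (4.04 ± 0.09, edgeR adjusted p = 5.32e-69). PTAFR, the receptor for platelet-activating factor, went from 2.65 ± 1.18 to 32.2 ± 2.19 CPM, ROR2, a receptor for WNT5A, from 0.778 ± 0.619 to 11.1 ± 2.26 CPM, and LRRC25, a leucine-rich repeat membrane protein, from 0.934 ± 0.488 to 11.8 ± 2.61 CPM. FGL2, a prothrombinase of macrophages (3.49 ± 0.19), and KRT7, a keratin (3.45 ± 0.30), completed the set with PTPN22. PTPN22, another tyrosine phosphatase of leukocytes, rose from 0.673 to 2.48 CPM (median 1.85) to 16.7 to 19.9 CPM (median 18.5) (3.40 ± 0.21, edgeR adjusted p = 4.46e-29). ADAM28 at 3.35 and ZMIZ1-AS1 at 3.19 lay just outside.

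**Figure D1:**
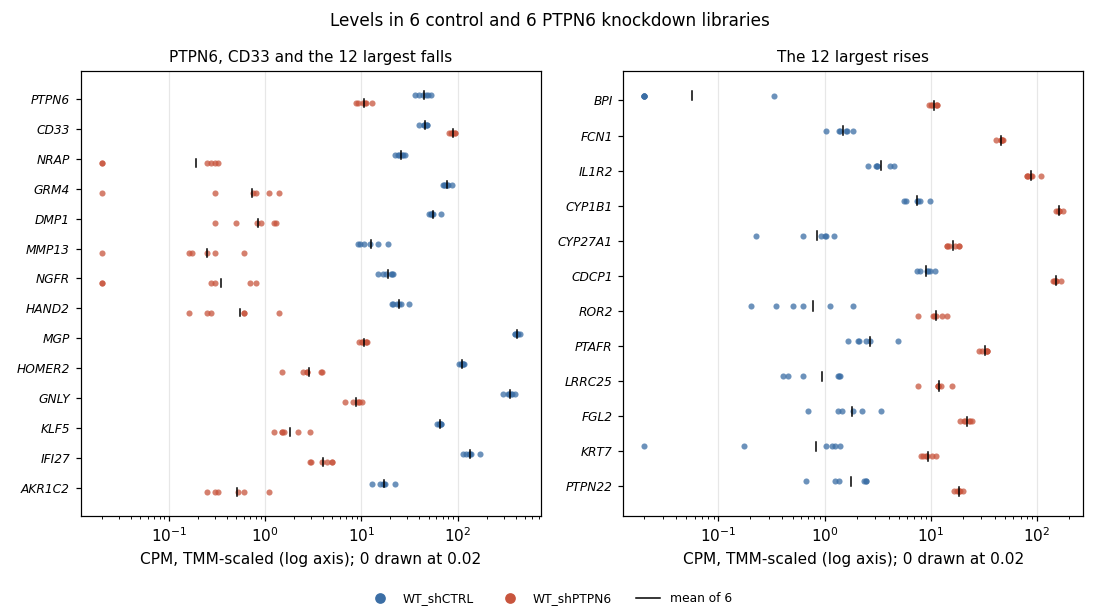
Level of each gene in each library, in TMM-scaled CPM on a log axis, for PTPN6, CD33, and the 12 largest falls and 12 largest rises. Points are libraries, 6 per group, and the bar is their mean; for every gene shown the 2 groups are separate, and PTPN6 lies between 8.73 and 12.8 CPM in all knockdown libraries.

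In transcripts per library, the loss was led by different genes. Osteopontin, SPP1, a secreted matrix protein, fell from 11163 to 12509.9 CPM (median 11738) to 4214 to 4565 CPM (median 4300.3) (-1.44 ± 0.05). B2M, the light chain of MHC class I, fell from 8479 to 10120.1 CPM (median 8992) to 4069 to 4642 CPM (median 4383) (-1.06 ± 0.05). CAP1, an actin-binding protein (-0.41 ± 0.04), the calcium-binding protein S100A4 (-0.78 ± 0.05), the membrane metalloproteinase MMP14 (-1.14 ± 0.05), interferon-induced IFI6, PNOC and the growth inhibitor BTG1 (-1.06 ± 0.04) were the other 6 of the 8 genes that lost the most CPM. The 8 that gained the most were MT-CO3, MT-RNR2, MT-ND4 and MT-ATP6 of the mitochondrial genome, the ribosomal proteins RPL27A and RPL37A, and the ferritin subunits FTH1 and FTL. MT-CO3, a subunit of cytochrome oxidase, went from 10736 ± 364 to 16552 ± 757 CPM (0.62 ± 0.04), RPL27A from 4111 ± 138 to 7203 ± 242 CPM (0.81 ± 0.05). Of 30 tested mitochondrial genes 26 rose and none fell. Among nuclear chromosomes the share that rose ran from 19.8% on chromosome 13, where 43.8% fell, to 38.4% on chromosome 21, where 20.8% fell. Of 188 processed pseudogenes 79 rose and 7 fell, against 3603 and 3625 of 11607 protein-coding genes; many processed pseudogenes are copies of ribosomal protein genes and can share their reads.

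Related phosphatases moved both ways. PTPN11, which encodes the close relative SHP-2, did not pass the test (58.8 ± 8.204 and 55.6 ± 6.21 CPM, -0.10 ± 0.08). Of 17 tested tyrosine phosphatases and inositol phosphatases of leukocytes 5 rose and 5 fell (8 on scaling by library totals alone; median -0.06), shares near the background. PTPN22 changed the most, followed by the receptor type phosphatase PTPRO (14.98 ± 1.16 to 28.99 ± 1.88 CPM, 0.95 ± 0.11), PTPN12, which acts on cytoskeletal adaptors (125 ± 11.3 to 219.7 ± 11.9 CPM, 0.82 ± 0.05), and PTPRJ (0.61 ± 0.07). INPP5D, the lipid phosphatase SHIP1 that also docks on ITIMs, fell from 293 to 327 CPM (median 299.5) to 209.5 to 227 CPM (median 217) (-0.49 ± 0.05), and the related INPPL1 was not called (0.04 ± 0.05). PTPN7 fell slightly (-0.23 ± 0.06).

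Src, Syk and Tec family kinases and their adaptors moved in both directions, 13 of 28 upward and 11 downward. The Src family kinase LYN rose from 175 to 194 CPM (median 185) to 322 to 377 CPM (median 359.5) (0.95 ± 0.05), without overlap. DOK2, an adaptor that restrains Ras (1.22 ± 0.07), and GRB2, which couples receptors to Ras (0.68 ± 0.04), rose too. The adaptor LCP2 (SLP-76) fell from 173 to 192 CPM (median 184) to 79.4 to 90.4 CPM (median 86.99) (-1.10 ± 0.05). PIK3CG, the phosphoinositide 3-kinase downstream of G proteins, and HCST, the DAP10 adaptor that recruits such kinases, fell by similar amounts (-1.09 ± 0.09 and -1.12 ± 0.07), and the exchange factor VAV3 by less (-0.62 ± 0.05). Of the paired signalling chains, TYROBP (DAP12) rose (0.29 ± 0.05) and FCER1G, the gamma chain of Fc receptors, fell (-0.38 ± 0.05).

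Of 17 tested inhibitory receptors (27 listed, without CD33), most of which carry ITIMs, 13 rose and 3 fell, with a median of 1.00. SIGLEC1 and VSIG4 of this list have no ITIM. Without them, a choice made after their values were seen, 12 of 15 rose and 2 fell, with the same median. PECAM1, a homophilic adhesion receptor, went from 148 to 171 CPM (median 162) to 364 to 393 CPM (median 381) (1.23 ± 0.05). LAIR1, a collagen receptor, went from 77.1 to 89.04 CPM (median 79.05) to 173 to 211 CPM (median 196) (1.255 ± 0.06), and VSIG4, an inhibitory complement receptor, from 13.2 ± 1.61 to 34.1 ± 3.84 CPM (1.36 ± 0.11). The 3 that fell were sialic acid receptors: CD22, SIGLEC1, the macrophage sialoadhesin (39.7 ± 2.37 to 12.7 ± 3.11 CPM, -1.62 ± 0.12), and SIGLEC9 (-0.55 ± 0.19). Among activating receptors of the same families 9 of 15 rose and 2 fell (median 1.05). CLEC7A, the beta-glucan receptor dectin-1, which signals through its own tail, rose from 3.27 to 6.76 CPM (median 6.003) to 32.1 to 37.7 CPM (median 35.6) (2.69 ± 0.14), and TREM1, which amplifies inflammation, from 1.73 to 3.47 CPM (median 2.66) to 13.1 to 21.9 CPM (median 16.4) (2.66 ± 0.18). CLEC5A (1.05 ± 0.11) and SIGLEC16 (1.299 ± 0.11) rose by less. TREM2, a lipid receptor, moved the other way, from 572 to 685 CPM (median 602) to 369 to 409 CPM (median 394) (-0.63 ± 0.05), and so did LILRA2 (-0.41 ± 0.11). Several of these families have near-identical members, between which short reads may be split or lost. PTPN11, like PTPRC, CD68, ITGAX, CTSA and TFEB elsewhere, was named after its values were seen.

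Interferon effectors fell, 55 of 59, the largest share in 1 direction among the lists with at least 8 tested genes. Interferons are ligands whose receptors activate JAK1 and TYK2, which phosphorylate STAT factors; with IRF9 these enter the nucleus and bind the interferon response element. Transcripts of the interferon ligands listed, which are not the whole family, were nearly absent at this depth. Of 10 interferon genes listed, 9 had no count in any of the 12 libraries, which allows up to 0.0994 CPM in controls and 0.115 CPM after knockdown for counting error, and IFNB1 had 1 count, in a control. Among receptor chains IFNAR2 went from 109.9 to 124 CPM (median 116) to 186 to 206 CPM (median 194) (0.74 ± 0.05) and IFNGR2 from 196 to 219 CPM (median 206) to 327 to 384 CPM (median 350.0) (0.78 ± 0.05), both upward. Of the other chains IFNGR1 fell (-0.42 ± 0.06), IFNAR1 rose (0.46 ± 0.06) and IL10RB was not called (0.17 ± 0.13). These chains were named after their values were seen and are left out of the checks on overlap, outliers and processing. Over all 27 tested receptors, kinases and factors 8 rose and 11 fell (median 0.07).

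The factors downstream of the receptors parted. STAT2 fell from 73.6 to 89.2 CPM (median 80.05) to 28.9 to 41.4 CPM (median 37.7) (-1.11 ± 0.08, edgeR adjusted p = 3.58e-25). IRF7, which is itself induced by interferon, fell from 38.8 to 54.5 CPM (median 45.2) to 7.22 to 10.4 CPM (median 9.02) (-2.32 ± 0.11). USP18, the interferon-induced protease that blocks the receptor, fell from 28.4 to 37.1 CPM (median 31.8) to 2.41 to 6.32 CPM (median 3.804) (-3.09 ± 0.15). In all 3 the knockdown libraries lay below every control. IRF1, a target of interferon gamma and of NF-kB, moved the other way, from 45.01 to 50.4 CPM (median 49.1) to 102 to 113 CPM (median 106) (1.15 ± 0.06), and STAT6, which carries interleukin 4 signals, rose as well (0.50 ± 0.05).

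Of the effectors only SAMHD1, which breaks down nucleotides, rose (174 ± 4.702 to 199 ± 13.4 CPM, 0.19 ± 0.05), a call lost on scaling by library totals alone, and GBP1 and GBP2 were among the 3 not called. The median of the 59 was -1.27. IFI27, an interferon-induced membrane protein, had the largest fall, from 114 to 169 CPM (median 133) to 2.91 to 4.98 CPM (median 4.16) (-5.07 ± 0.12, edgeR adjusted p = 1.6e-49). IFI6, which protects cells from flaviviruses, ranged over 1638 to 2165 CPM (median 1833) in controls and 253 to 356 CPM (median 294) after knockdown (-2.61 ± 0.10). IFITM3, which blocks viral entry, ranged over 657 to 810.2 CPM (median 742) and 172 to 235 CPM (median 204) (-1.84 ± 0.05), and PARP9, an ADP-ribosyltransferase partner, over 124 to 148 CPM (median 140.1) and 35.5 to 43.5 CPM (median 37.8) (-1.83 ± 0.07). IFIT1 and IFI44 are given because their promoters are printed below, and were chosen after their values were seen. IFIT1, which binds viral RNA caps, went from 68.9 to 91.3 CPM (median 79) to 9.33 to 16.9 CPM (median 12.3) (-2.63 ± 0.10), and IFI44 from 73.4 to 98.3 CPM (median 82.5) to 10.2 to 17.8 CPM (median 12.99) (-2.63 ± 0.10). The death ligand TNFSF10 (TRAIL) fell less (44.2 ± 2.66 to 23.6 ± 4.76 CPM, -0.90 ± 0.10).

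Sensors of nucleic acid followed in part. Of 17 tested 10 fell and 6 rose. RIGI, the RNA helicase that detects viral 5' ends, fell from 83.98 to 90.6 CPM (median 86.03) to 8.43 to 12.4 CPM (median 10.8) (-3.01 ± 0.10), and IFI16, a DNA sensor, from 237 to 273 CPM (median 239.5) to 55.1 to 69.4 CPM (median 63.9) (-1.97 ± 0.06). STING1, the adaptor for cyclic dinucleotides, fell from 151 to 176 CPM (median 158) to 70.1 to 79.7 CPM (median 72.7) (-1.12 ± 0.06), while CGAS, the enzyme that makes them, rose from 16.3 to 25.9 CPM (median 20.7) to 25.4 to 31.01 CPM (median 28.3) (0.43 ± 0.11). The endosomal RNA receptors split: TLR7 fell (11.2 ± 1.64 to 3.64 ± 0.849 CPM, -1.66 ± 0.21) and TLR8 rose (3.28 ± 0.498 to 8.37 ± 0.8297 CPM, 1.35 ± 0.20). The mitochondrial adaptor MAVS and the kinase IKBKE rose by 0.30 ± 0.07 and 0.65 ± 0.07.

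**Figure D2:**
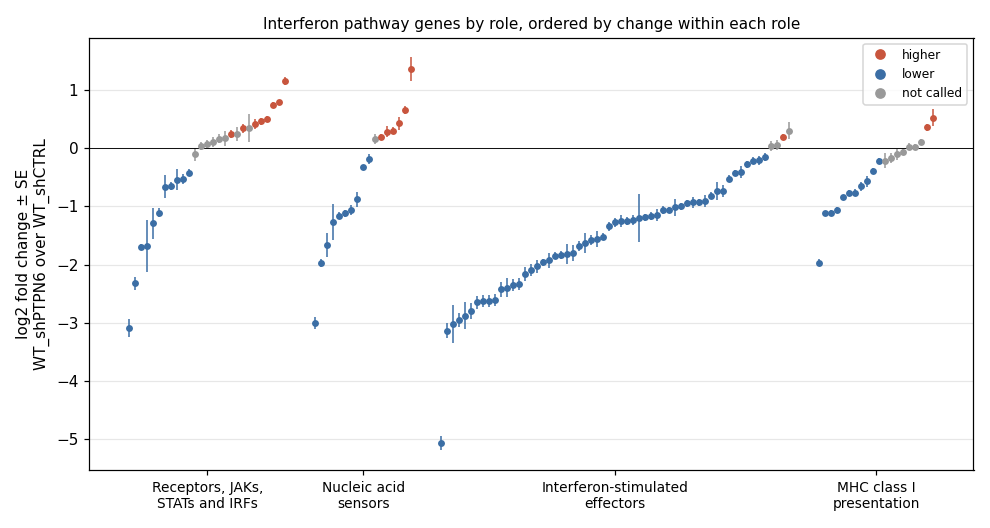
Log2 fold change ± SE of each tested gene of the interferon pathway, grouped by role and ordered by change, with genes that rose, fell or were not called in separate colours. The group of receptors, JAKs, STATs and IRFs lies on both sides of 0. Of 59 effectors 55 lie below it and are called, down to -5.07 for IFI27.

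Promoter sequences of 4 effectors are shown as examples of a motif found in most promoters of that list. Each line gives the 150 bases before the RefSeq start (GRCh38.p14), 5' to 3' on the gene's strand, and capitals mark matches to GAAANNGAA, the core of the interferon response element, on either strand. The 4 are the effectors with the smallest adjusted p among those that fell and hold a match. IFI27 lies at chr14:94110586-94110735 (plus), IFIT1 at chr10:89392473-89392622 (plus), IFITM3 at chr11:320861-321010 (minus) and IFI44 at chr1:78649639-78649788 (plus).
IFI27: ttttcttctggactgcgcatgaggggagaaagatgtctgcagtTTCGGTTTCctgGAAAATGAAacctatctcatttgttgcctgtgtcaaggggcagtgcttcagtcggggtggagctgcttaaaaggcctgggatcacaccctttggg
IFIT1: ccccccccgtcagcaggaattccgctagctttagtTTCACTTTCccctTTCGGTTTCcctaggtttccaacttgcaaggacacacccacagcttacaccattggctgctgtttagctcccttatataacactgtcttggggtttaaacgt
IFITM3: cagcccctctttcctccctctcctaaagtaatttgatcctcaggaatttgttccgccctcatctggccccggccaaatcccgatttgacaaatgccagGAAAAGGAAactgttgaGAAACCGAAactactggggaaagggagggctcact
IFI44: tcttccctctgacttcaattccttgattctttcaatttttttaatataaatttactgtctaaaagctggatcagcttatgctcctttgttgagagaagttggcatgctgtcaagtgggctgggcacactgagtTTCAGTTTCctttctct

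Matches in IFI27 begin 107 and 95 bases before the start, and both overlap a match to the gamma-activated site TTCNNNGAA. Those of IFIT1 begin at 115 and 102, those of IFITM3 at 52 and 35, and that of IFI44 at 17. In the window from 250 bases before to 50 after the start, GAAANNGAA was found in 32 of 47 effector promoters in the table (68.1%). It was found in 7 of 16 promoters of MHC class I genes (43.8%), in 6.67% of 9967 tested genes and in 8.29% of all 27305 promoters. Among 896 genes that fell at least 2-fold the share was 8.59%, and 6.15% without the effectors, and among 414 that rose as much it was 8.45%. Genes with the motif fell in 32% of cases and rose in 29.5%, near the shares of genes without it, 31.3% and 30.5%. The motif was thus frequent in the effector list and near the background share among the other genes that fell. The effectors were listed as interferon-induced genes, which favours the motif whatever their change, and a link to the falls was not tested. The gamma-activated site was found in 21.3% of effector promoters and 6.29% of tested genes.

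Genes of MHC class I presentation fell more often than they rose, 11 of 20 genes lower and 2 higher (median -0.30). HLA-E, a ligand of natural killer cell receptors, ranged over 194 to 227 CPM (median 209.8) in controls and 88.2 to 107 CPM (median 95.3) after knockdown (-1.11 ± 0.05). HLA-B fell as well (-0.84 ± 0.04). The groups were separate for both. MR1, which presents vitamin metabolites, and the peptidase ERAP2 rose (0.35 ± 0.07 and 0.52 ± 0.15). MHC class II genes were mostly not called: 5 of 18 rose and 2 fell. The co-stimulator CD86 stood out, rising from 3.62 to 8.39 CPM (median 6.29) to 25.9 to 35.8 CPM (median 32.3) (2.39 ± 0.14), and the class II processing protease CTSS rose from 304 to 342 CPM (median 311) to 591 to 637 CPM (median 613) (0.96 ± 0.05).

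Genes that respond early to growth factors through ERK mostly fell. Of 26 early response transcription factors 17 fell and 6 rose (median -0.57), and of 20 feedback inhibitors of the pathway 12 fell and 5 rose (3 on scaling by library totals alone; median -0.59). EGR1 ranged over 48.2 to 66.6 CPM (median 62.5) in controls and 9.01 to 15.4 CPM (median 11.3) after knockdown (-2.32 ± 0.10), and IER2 over 283 to 324 CPM (median 310.3) and 110.1 to 157 CPM (median 140.4) (-1.19 ± 0.06). The phosphatases DUSP2 and DUSP5, which inactivate ERK, went from 48.9 ± 5.18 to 21.3 ± 1.45 CPM and from 54.2 ± 4.26 to 27.7 ± 3.7 CPM (-1.20 ± 0.08 and -0.95 ± 0.08). SPRY2, an inhibitor of receptor tyrosine kinase signalling, fell from 292 to 341 CPM (median 321) to 142 to 209 CPM (median 168) (-0.92 ± 0.05). DUSP6, the most abundant ERK phosphatase here, rose slightly (1010.1 ± 51.5 to 1094 ± 39.7 CPM, 0.12 ± 0.04), a call likewise lost on scaling by library totals alone. JUN (0.78 ± 0.06), FOSL1 (1.32 ± 0.18), MYC (10.5 ± 3.18 to 23.4 ± 3.01 CPM, 1.16 ± 0.14) and the survival factor IER3 (92 ± 4.61 to 231 ± 26.4 CPM, 1.33 ± 0.06) rose against the trend.

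The EGR1 promoter is shown because it holds 2 CArG boxes, the motif bound by serum response factor, in capitals, which begin 105 and 83 bases before the start (chr5:138465329-138465478, plus strand, GRCh38.p14).
EGR1: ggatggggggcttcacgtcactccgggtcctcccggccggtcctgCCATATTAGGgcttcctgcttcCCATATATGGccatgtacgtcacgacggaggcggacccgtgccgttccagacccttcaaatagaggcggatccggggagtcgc
A CArG box was found in 2 of 20 promoters of the early response list (10%), in 1.79% of genes that fell at least 2-fold, in 1.69% of those that rose as much and in 1.15% of tested genes.

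Regulators of the myeloid lineage changed by large amounts. GFI1, a transcriptional repressor that acts in the choice between granulocyte and monocyte fate, fell from 137 to 152 CPM (median 143) to 9.94 to 17.96 CPM (median 13.2) (-3.42 ± 0.08, edgeR adjusted p = 6.68e-66). ID1 and ID3, inhibitors of helix-loop-helix factors and targets of BMP signals, fell from 50.3 to 58.3 CPM (median 54.4) to 5.66 to 9.96 CPM (median 7.71) and from 101 to 124 CPM (median 110.1) to 8.73 to 15.2 CPM (median 12.4) (-2.84 ± 0.10 and -3.20 ± 0.09). MEF2A and MEF2C, partners in macrophage gene control, fell as well, MEF2C from 814 to 905 CPM (median 883) to 352 to 422 CPM (median 402) (-1.13 ± 0.04) and MEF2A likewise (-1.40 ± 0.05). SPI1, the master factor PU.1, rose from 50.3 to 71.5 CPM (median 65.8) to 139 to 168 CPM (median 151) (1.249 ± 0.06), CEBPB from 62.4 ± 5.15 to 127 ± 9.404 CPM (1.03 ± 0.06), ZEB2 from 142 ± 12.5 to 234 ± 14.5 CPM (0.72 ± 0.05) and MITF, a factor of lysosome genes, from 13.7 to 19.4 CPM (median 15.9) to 62.5 to 78.7 CPM (median 68.02) (2.08 ± 0.09). Over 32 such factors 16 rose and 11 fell. Among growth factor receptors, CSF1R, the receptor that maintains macrophages, rose from 250.3 to 271 CPM (median 264) to 578 to 625 CPM (median 592) (1.19 ± 0.05). Its relative FLT3, a receptor of progenitors, fell from 56.7 to 66.4 CPM (median 60.4) to 12.5 to 21.6 CPM (median 14.7) (-1.97 ± 0.10), as did the interleukin 3 receptor chain IL3RA (25.01 ± 4.42 to 8.76 ± 1.67 CPM), while CSF2RA and CSF2RB, which bind GM-CSF, rose (1.16 ± 0.31 and 1.02 ± 0.12).

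More markers of monocytes and of mature macrophages rose than fell. Of 18 monocyte markers 12 rose and 3 fell (median 1.44), and their summed level went from 905 to 1057 CPM (median 966) to 2648 to 2924 CPM (median 2698). LYZ, the antibacterial enzyme lysozyme, ranged over 23.4 to 31.7 CPM (median 25.02) in controls and 192 to 256 CPM (median 235) after knockdown (3.13 ± 0.07), and CD14, the co-receptor for endotoxin, over 235 to 314 CPM (median 280.2) and 842 to 894 CPM (median 871) (1.63 ± 0.05). S100A9, a calgranulin, went from 207 ± 25.1 to 700.5 ± 71.1 CPM (1.76 ± 0.07) and CCR2, the receptor that draws monocytes from blood, from 6.35 ± 1.66 to 15.1 ± 2.98 CPM (1.258 ± 0.18). VCAN, CX3CR1 and MS4A7 fell (-0.92 ± 0.11, -0.54 ± 0.07 and -0.21 ± 0.05). Of 29 macrophage maturation genes, several of which are also in other lists, 22 rose and 5 fell (median 1.02). Their summed level moved the other way, from 16108 to 18007 CPM (median 16900.1) to 14537 to 15718 CPM (median 15207), without overlap; SPP1, the most abundant of them in controls, went from 11786 ± 453 to 4339.6 ± 138 CPM. The integrin ITGAM went from 53.4 to 69.3 CPM (median 62.5) to 164 to 192 CPM (median 174) (1.498 ± 0.06), the haemoglobin scavenger receptor CD163 from 16.04 to 29.5 CPM (median 21.9) to 83.6 to 95.6 CPM (median 89.7) (1.97 ± 0.09) and the lectin CHI3L1 from 637 ± 41.7 to 1489 ± 71.1 CPM (1.23 ± 0.04). The scavenger receptor MSR1 fell from 36.4 to 41.01 CPM (median 37.2) to 5.48 to 12.7 CPM (median 7.97) (-2.21 ± 0.12), and GPNMB, a lysosomal glycoprotein, from 45.1 ± 6.25 to 23.7 ± 4.72 CPM (-0.95 ± 0.10). Granule proteins moved both ways. RNASE6 rose (7.23 ± 1.21 to 32.1 ± 4.27 CPM, 2.15 ± 0.14). CTSG (11.9 ± 2.01 to 1.57 ± 1.07 CPM, -2.82 ± 0.26) and AZU1 (-1.93 ± 0.29), proteins of immature granules, fell.

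**Figure D3:**
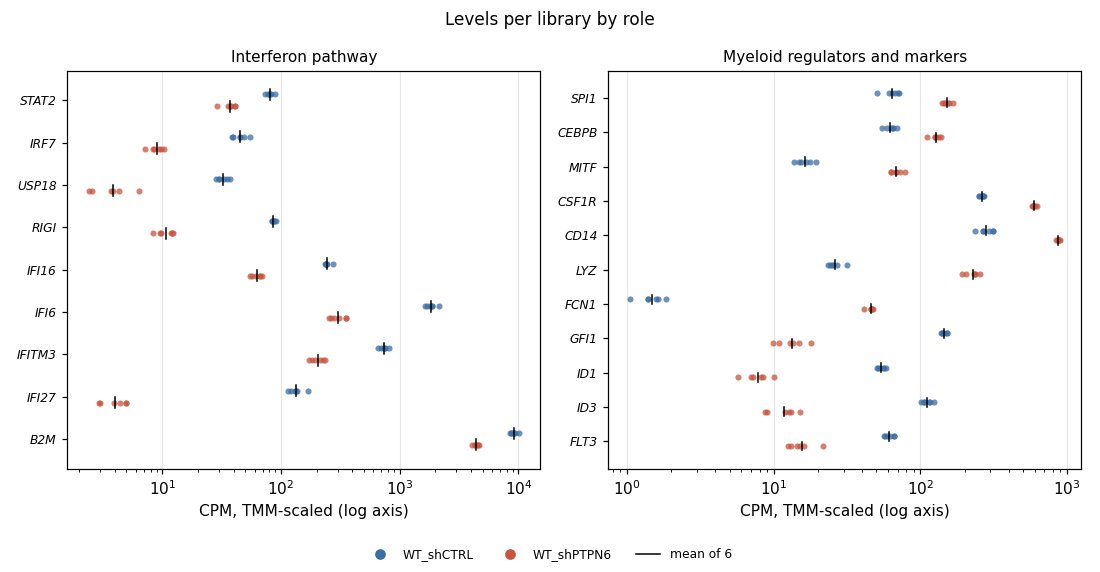
Level per library in TMM-scaled CPM on a log axis for interferon pathway genes (left) and myeloid regulators and markers (right), 6 libraries per group with the mean as a bar. All 9 interferon genes on the left are lower in every knockdown library, while on the right SPI1, CEBPB, MITF, CSF1R, CD14, LYZ and FCN1 are higher and GFI1, ID1, ID3 and FLT3 lower.

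Lysosomal genes rose more often than they fell in each of 4 lists. Of 16 tested subunits and partners of the proton pump V-ATPase 13 rose and 2 fell, but by moderate amounts (median 0.41). ATP6V0D1 went from 96.9 to 118 CPM (median 105) to 184 to 222 CPM (median 200.1) (0.92 ± 0.06) and ATP6AP1 from 292 ± 12.6 to 508 ± 26.4 CPM (0.80 ± 0.05), while ATP6V1G1 fell (-0.55 ± 0.05). Of 19 cathepsins, cystatins and other lysosomal proteases 12 rose and 7 fell (median 0.78). CTSD, the aspartic protease and the most abundant of them, ranged over 993 to 1153 CPM (median 1016) in controls and 1993 to 2468 CPM (median 2377) after knockdown (1.15 ± 0.05). CTSC, which activates granule proteases, moved the other way, from 513 to 568 CPM (median 529) to 242 to 280.0 CPM (median 265) (-1.02 ± 0.07), as did CTSW (27.99 ± 4.58 to 4.03 ± 0.626 CPM, -2.79 ± 0.15). Of 30 hydrolases 20 rose and 3 fell (6 on scaling by library totals alone); SGSH, a heparan sulfatase, went from 14.3 ± 1.71 to 43.9 ± 5.66 CPM (1.62 ± 0.10), GLA, the alpha-galactosidase missing in Fabry disease, from 45.8 ± 3.53 to 97.6 ± 3.13 CPM (1.09 ± 0.07), and PSAP, the precursor of the saposins, from 1839 ± 85.6 to 2829 ± 153 CPM (0.62 ± 0.04). Of 30 membrane proteins and regulators 17 rose and 3 fell (6 on the same scaling). LAPTM4A (246 ± 9.27 to 657 ± 17.4 CPM, 1.42 ± 0.04) and the cholesterol carrier NPC2 (349 ± 12.1 to 536 ± 24.2 CPM, 0.62 ± 0.05) rose, and CD63, a tetraspanin of late endosomes, fell (2972 ± 165 to 2034 ± 105 CPM, -0.55 ± 0.04). Autophagy genes were mixed, 11 of 24 higher and 6 lower: GABARAPL1 rose (1.13 ± 0.07) and the receptor OPTN fell (-1.27 ± 0.08).

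The promoters of CTSA, a carboxypeptidase, and of ATP6V0D1 are shown because they hold the CLEAR element TCACGTGA, in capitals, which the MiT family of factors (MITF, TFEB, TFE3) binds. They are the lysosomal genes with the smallest adjusted p among those that rose and hold it in the printed 150 bases, at chr20:45891185-45891334 (plus) and chr16:67481158-67481307 (minus), GRCh38.p14.
CTSA: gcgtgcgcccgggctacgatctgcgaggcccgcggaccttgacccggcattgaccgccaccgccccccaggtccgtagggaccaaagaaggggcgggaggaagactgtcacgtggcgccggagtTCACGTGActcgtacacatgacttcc
ATP6V0D1: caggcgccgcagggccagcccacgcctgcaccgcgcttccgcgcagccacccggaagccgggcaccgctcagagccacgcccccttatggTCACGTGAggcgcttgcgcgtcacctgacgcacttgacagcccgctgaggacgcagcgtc
CTSA rose from 151 ± 5.28 to 266 ± 19.1 CPM (0.82 ± 0.05). The element was found in 10 of 65 promoters of the lysosomal lists (15.4%), of which 7 rose, 2 fell and 1 was not called. Its share was 1.99% of tested genes, 2.42% of those that rose at least 2-fold and 0.335% (3 of 896) of those that fell at least 2-fold. Over all calls it was 2.18% of genes that rose, 1.44% of those that fell and 2.28% of those not called. Of the factors, MITF rose more than 4-fold, whereas TFEB was not called (58.6 ± 4.42 and 53.8 ± 5.79 CPM). TFE3 is not reported here, and a link between these factors and the lysosomal changes was not tested.

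Lipid genes leaned upward. Of 17 genes of the oxysterol receptor LXR and of cholesterol efflux 13 rose and 2 fell (median 0.73). The efflux pump ABCA1 ranged over 13.4 to 21.8 CPM (median 15.4) in controls and 67.7 to 88.8 CPM (median 79.8) after knockdown (2.23 ± 0.09), and APOE, which accepts the cholesterol, over 4.37 to 10.6 CPM (median 7.28) and 15.9 to 31.3 CPM (median 25.01) (1.78 ± 0.16). ABCA5 fell (-1.20 ± 0.16). Cholesterol synthesis and uptake rose in 16 of 24 genes and fell in 4 (median 0.52). INSIG1, which holds the sterol sensor in the endoplasmic reticulum, went from 82.7 ± 5.56 to 189.7 ± 16.3 CPM (1.20 ± 0.06). The carrier STARD4 fell (99.2 ± 5.05 to 48.4 ± 4.83 CPM, -1.03 ± 0.10). Genes of fatty acid uptake, storage and oxidation rose in 20 of 30 cases and fell in 5. DGAT2, which makes triglyceride, rose from 14.3 ± 1.87 to 51.2 ± 4.07 CPM (1.84 ± 0.09), and the lipid receptor CD36 from 113 ± 5.91 to 223 ± 13.1 CPM (0.98 ± 0.05). CPT1A, the gate of mitochondrial fatty acid oxidation, and ACADM, an oxidation enzyme, fell (-0.79 ± 0.06 and -0.71 ± 0.06).

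Central metabolism leaned upward, in small steps for the citric acid cycle and respiratory chain. At least 2-fold higher were 9 of 35 genes of glycolysis and the hypoxia response and 0 of 56 of the latter, against 4.76% of all tested genes. Of 35 genes of glycolysis and the hypoxia response 25 rose and 5 fell (median 0.57), and of 56 nuclear genes of the citric acid cycle and respiratory chain 37 rose and 5 fell (8 on scaling by library totals alone; median 0.30). PFKFB4, which sets the level of a glycolytic activator, went from 12.03 ± 1.54 to 45.1 ± 3.13 CPM (1.91 ± 0.10) and GAPDH from 1913 ± 125 to 3206 ± 328 CPM (0.75 ± 0.05). The glucose transporter SLC2A3 fell (29.8 ± 2.08 to 15.7 ± 2.27 CPM, -0.92 ± 0.11). UQCRH of complex III went from 858 ± 36.2 to 1443 ± 53.8 CPM (0.75 ± 0.04) and malate dehydrogenase MDH2 from 327 ± 11.9 to 569.7 ± 8.37 CPM (0.80 ± 0.04). Translation factors rose in 18 of 26 cases and fell in 3; the cap-binding protein EIF4E was among those that fell (107 ± 2.598 to 61.2 ± 4.29 CPM, -0.80 ± 0.06). Proteasome subunits moved little (median 0.08), with 9 of 26 higher and 4 lower.

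Iron genes mostly rose. Of 17 iron handling genes 12 rose and 2 fell (1 with wild-type libraries alone; median 0.94). FTH1, the ferritin heavy chain, ranged over 1824 to 2067 CPM (median 1895) in controls and 3535 to 4215 CPM (median 4008) after knockdown (1.04 ± 0.05), and the iron importer SLC11A2 over 45.9 to 55.1 CPM (median 47.8) and 121 to 144 CPM (median 129) (1.40 ± 0.06). SLC40A1, the exporter ferroportin, fell (3.53 ± 1.203 to 0.947 ± 0.672 CPM, -1.72 ± 0.35). Metallothioneins, which buffer zinc and copper, fell: with zinc transporters 7 of 9 were lower and 1 higher (median -1.16). MT2A ranged over 311 to 346 CPM (median 322) in controls and 32.9 to 45.1 CPM (median 34.9) after knockdown (-3.17 ± 0.06, edgeR adjusted p = 1.51e-73), and MT1E over 86.4 to 102 CPM (median 90.6) and 25.9 to 37.6 CPM (median 27.2) (-1.65 ± 0.08). MTF1, the zinc-sensing factor that drives them, was the member that rose (43.4 ± 4.17 to 83.8 ± 4.19 CPM, 0.95 ± 0.07).

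Genes of redox defence followed the upward trend, 25 of 35 NRF2 targets and glutathione genes higher and 5 lower (median 0.47). MGST1, a membrane glutathione transferase, went from 51.2 to 64.7 CPM (median 59.5) to 187 to 226 CPM (median 200.1) (1.79 ± 0.06), and SLC7A11, the cystine importer, from 31.8 ± 3.72 to 69.2 ± 5.33 CPM (1.12 ± 0.07). PRDX6, a peroxiredoxin, fell from 986 to 1105 CPM (median 1055) to 415 to 434 CPM (median 429) (-1.31 ± 0.04), and GCLM, a subunit of the enzyme that starts glutathione synthesis, from 136 ± 8.696 to 63.5 ± 4.74 CPM (-1.10 ± 0.06). Of 15 NADPH oxidase and calgranulin genes 10 rose and 5 fell. The calcium-binding proteins S100A10 (-0.80 ± 0.05) and S100A6 (-0.30 ± 0.05) fell.

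Receptors for microbial products rose more often than they fell. Of 21 Toll-like receptors and adaptors 12 rose and 4 fell (median 0.41): TLR2 (72.5 ± 6.64 to 127 ± 6.38 CPM, 0.81 ± 0.06) and CD180 (1.23 ± 0.14) rose, and the adaptors MYD88 (58.1 ± 5.69 to 38.03 ± 6.45 CPM, -0.60 ± 0.09) and TRAF6 (32.7 ± 2.09 to 14.2 ± 2.48 CPM, -1.18 ± 0.11) fell. Of 20 inflammasome genes 12 rose and 3 fell. NLRC4, which senses flagellin through its partners, went from 2.796 to 9.76 CPM (median 5.57) to 24.5 to 29.8 CPM (median 27.6) (2.17 ± 0.15), and AIM2, a DNA sensor, from 3.79 ± 1.26 to 1.61 ± 0.819 CPM (-1.27 ± 0.31). NF-kB subunits, inhibitors and survival factors changed little (median 0.23; 16 of 27 higher, 6 lower). The deubiquitinase TNFAIP3 rose (69.2 ± 6.53 to 119.8 ± 9.97 CPM), NFKBIA, the main inhibitor, fell slightly (396 ± 17.4 to 328 ± 46.3 CPM), and BIRC2, a ubiquitin ligase, fell by more (118 ± 5.46 to 65.4 ± 7.35 CPM, -0.84 ± 0.06).

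Chemokine transcripts rose in 13 of 18 tested cases (31 listed) and fell in 3 (median 0.80). CXCL8, which draws neutrophils, ranged over 73.4 to 94.6 CPM (median 87.7) in controls and 216 to 365 CPM (median 252) after knockdown (1.63 ± 0.19), and CCL3 over 48.5 to 64.2 CPM (median 58.9) and 121 to 186 CPM (median 128) (1.32 ± 0.11). CCL2, the ligand of CCR2, went from 7.93 ± 1.257 to 21.8 ± 4.39 CPM (1.46 ± 0.13). CXCL10, an interferon-induced chemokine, fell from 8.101 to 14.5 CPM (median 11.6) to 1.81 to 6.34 CPM (median 3.57) (-1.52 ± 0.20), and CCL20 from 138 ± 9.49 to 68.8 ± 16.7 CPM (-0.98 ± 0.23). Of 10 chemokine receptors 4 rose and 5 fell. CXCR4, a receptor of bone marrow retention, went from 6.84 ± 1.57 to 21.04 ± 2.27 CPM (1.61 ± 0.14), and CMKLR1, the receptor for chemerin, fell from 53.7 to 61.6 CPM (median 55.4) to 2.49 to 4.93 CPM (median 3.12) (-4.04 ± 0.14, edgeR adjusted p = 7.48e-49).

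Interleukins and their receptors moved both ways, 13 of 28 higher and 6 lower. Beside IL1R2, the signalling chains IL13RA1 (66.2 ± 4.403 to 130.3 ± 9.74 CPM, 0.99 ± 0.06) and IL6ST (15.97 ± 1.64 to 31.1 ± 2.03 CPM, 0.95 ± 0.11) rose, while IL7R (109 ± 8.04 to 41.9 ± 3.62 CPM, -1.39 ± 0.07) and IL6R (149 ± 9.92 to 99.8 ± 7.88 CPM, -0.58 ± 0.06) fell. IL6, IL27 and IL2RA had no counts in the 12 libraries. In the TNF superfamily 13 of 23 rose and 6 fell. The T cell co-stimulatory ligands TNFSF18 and TNFSF4 fell the most, TNFSF18 from 11.7 to 17.5 CPM (median 15.3) to 0.301 to 1.29 CPM (median 0.8498) (-4.11 ± 0.23) and TNFSF4 from 54.9 to 70.1 CPM (median 66.7) to 6.69 to 12.6 CPM (median 10.1) (-2.71 ± 0.11). The receptors of the ligand TRAIL rose as it fell: TNFRSF10B went from 19.4 ± 2.21 to 60.4 ± 7.92 CPM (1.63 ± 0.09), TNFRSF10D, a decoy, from 16.3 ± 2.995 to 36.3 ± 4.91 CPM (1.17 ± 0.10) and TNFRSF10A by 0.82 ± 0.11.

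Among eicosanoid genes 7 of 17 rose and 6 fell. LTA4H, which makes leukotriene B4, ranged over 112 to 131 CPM (median 126) in controls and 496 to 590.4 CPM (median 569) after knockdown (2.15 ± 0.05), and ALOX5AP, the helper of 5-lipoxygenase, over 557 to 638 CPM (median 568) and 1044 to 1235 CPM (median 1224) (1.03 ± 0.04). LTC4S, of the cysteinyl branch, and its receptor CYSLTR1 fell (5.98 ± 1.64 to 1.12 ± 0.978 CPM, -2.20 ± 0.30; 183 ± 9.101 to 94.6 ± 5.77 CPM, -0.95 ± 0.06). Cyclooxygenase PTGS1 fell too (333 ± 14.8 to 150.2 ± 11.8 CPM, -1.15 ± 0.05). Purinergic receptors and ectoenzymes rose in 13 of 16 cases and fell in none at the threshold (median 0.78). NT5E, which makes adenosine from AMP, ranged over 31.97 to 40.7 CPM (median 35.8) and 127 to 141 CPM (median 133) (1.89 ± 0.07). CD38, an ectoenzyme that consumes NAD, went from 1.69 ± 0.903 to 9.35 ± 1.24 CPM (2.41 ± 0.22), and ADA, which removes adenosine, from 6.61 ± 1.91 to 18.4 ± 3 CPM (1.46 ± 0.15).

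Uptake receptors moved both ways. Of 25 scavenger and uptake receptors 13 fell and 9 rose. AXL, a receptor for dying cells, fell from 16.5 to 23.9 CPM (median 19.7) to 0.352 to 1.62 CPM (median 1.17) (-4.13 ± 0.23, edgeR adjusted p = 6.46e-33), and its ligand GAS6 from 22.2 to 29.5 CPM (median 24.6) to 1.58 to 3.91 CPM (median 2.99) (-3.11 ± 0.17). MRC2, a collagen receptor, fell (214 ± 7.92 to 85.5 ± 4.65 CPM, -1.32 ± 0.05), as did HAVCR2 (188 ± 7.81 to 92.6 ± 3.88 CPM, -1.02 ± 0.06), while LRP1, a receptor of many ligands, rose (36.9 ± 3.88 to 78.97 ± 4.35 CPM, 1.10 ± 0.08). Of 16 Fc receptors, complement receptors and beta-2 integrins 9 rose and 3 fell; ITGAL rose (26.1 ± 1.99 to 57.9 ± 5.67 CPM, 1.14 ± 0.09) and the complement receptor C5AR2 fell (96.3 ± 6.76 to 45.2 ± 4.54 CPM, -1.09 ± 0.07). Among complement regulators CD55 fell from 62.6 ± 7.88 to 17.4 ± 3.94 CPM (-1.80 ± 0.12) and CLU fell from 62.2 ± 6.96 to 25.6 ± 4.95 CPM (-1.29 ± 0.09), whereas the C1q chain C1QA rose (12.4 ± 2.33 to 26.7 ± 3.78 CPM, 1.11 ± 0.19). Over the 15 tested complement genes 3 rose and 6 fell.

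Secreted proteases and matrix showed some of the widest spans. Of 21 metalloproteinases and inhibitors 6 rose and 8 fell, from -4.36 to 2.85. MMP13, which is not in that list, fell further (-5.57 ± 0.35). The collagenase MMP1 fell from 109.6 to 132 CPM (median 120.5) to 4.52 to 8.74 CPM (median 5.68) (-4.36 ± 0.09), MMP7 from 39.7 ± 2.77 to 14.8 ± 2.101 CPM (-1.38 ± 0.08) and MMP14, which anchors to the membrane, from 3269 to 3985 CPM (median 3632) to 1502 to 1790.3 CPM (median 1642). The gelatinase MMP9 rose from 336 to 422 CPM (median 396) to 1678 to 1976 CPM (median 1901) (2.28 ± 0.05), and ADAMDEC1, a macrophage protease, from 7.301 ± 1.55 to 52.5 ± 5.34 CPM (2.85 ± 0.12). Matrix and adhesion genes split evenly, 15 of 34 higher and 14 lower. Fibronectin, FN1, rose from 24.1 to 36.1 CPM (median 32.2) to 248 to 301 CPM (median 279.6) (3.15 ± 0.07, edgeR adjusted p = 9.79e-42), and TGFBI, a matrix protein, from 715 ± 24.5 to 1442 ± 81.2 CPM (1.01 ± 0.05), whereas CD44, the hyaluronan receptor, fell from 570.5 to 622 CPM (median 599.8) to 238 to 312 CPM (median 267) (-1.14 ± 0.05). Of 15 genes of coagulation and plasminogen activation 5 rose and 5 fell: THBD, thrombomodulin (13.2 ± 1.54 to 63 ± 7.14 CPM, 2.25 ± 0.09), and tissue factor, F3 (11.3 ± 1.12 to 40.1 ± 5.81 CPM, 1.83 ± 0.12), rose, and the urokinase receptor PLAUR (632 ± 62.3 to 325 ± 13.6 CPM, -0.96 ± 0.08) and the thrombin receptor F2R (18.6 ± 2.34 to 3.68 ± 1.46 CPM, -2.36 ± 0.16) fell.

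Growth factors fell in 14 of 25 cases and rose in 6 (median -0.43, or -0.7662 with wild-type libraries alone). BMP8B fell from 999.9 to 1080.5 CPM (median 1023) to 113 to 119.9 CPM (median 119) (-3.13 ± 0.05) and PDGFA from 679 to 728 CPM (median 721) to 187 to 203 CPM (median 192) (-1.89 ± 0.04), and in both every knockdown library was below every control. INHBA, the activin subunit, and IGFBP2 fell as well (67.1 ± 5.26 to 24.9 ± 1.95 CPM, -1.43 ± 0.07; 83.2 ± 8.17 to 15.8 ± 3.34 CPM, -2.40 ± 0.09). BMP2 (7.05 ± 1.32 to 20.04 ± 4.297 CPM, 1.51 ± 0.22), NRG1 (7.24 ± 1.096 to 18.8 ± 2.79 CPM, 1.37 ± 0.12) and CSF1, the ligand of CSF1R (10.4 ± 1.95 to 22.4 ± 2.01 CPM, 1.10 ± 0.12), rose. Aryl hydrocarbon and retinoid genes parted: the receptor AHR (8.31 ± 1.52 to 25.3 ± 4.498 CPM, 1.65 ± 0.14), its repressor AHRR (1.90 ± 0.14) and its target CYP1B1 rose, while CYP26B1, which degrades retinoic acid, and DHRS9, which helps make it, fell (17.6 ± 3.43 to 2.099 ± 1.14 CPM, -3.02 ± 0.20; 29.7 ± 2.65 to 5.897 ± 0.826 CPM, -2.31 ± 0.15). TIPARP, another target of AHR, fell (37.2 ± 2.86 to 19.4 ± 3.83 CPM, -0.93 ± 0.10).

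Stress and proliferation genes changed by smaller amounts. Of 24 endoplasmic reticulum chaperones and unfolded protein response genes 15 fell and 4 rose, with a median of -0.21; DNAJB11 (122 ± 3.29 to 71.2 ± 5.71 CPM, -0.77 ± 0.06) and MANF (219 ± 9.02 to 157 ± 16.4 CPM, -0.48 ± 0.05) fell. Heat shock chaperones rose in 8 of 21 cases and fell in 4, and HSPA1B, an inducible form, rose (15.98 ± 2.38 to 36.5 ± 2.999 CPM, 1.18 ± 0.09). Targets of ATF4 were mixed (10 higher and 13 lower of 28): the arginine importer SLC7A1 fell (69.9 ± 5.55 to 30.5 ± 4.202 CPM, -1.19 ± 0.08) and SESN2 rose (47.4 ± 2.71 to 75.1 ± 6.22 CPM, 0.67 ± 0.07). Of 29 mitotic genes 18 fell and 1 rose (median -0.35), TOP2A from 306 ± 17.98 to 204 ± 14.2 CPM (-0.59 ± 0.05) and CCNB2 from 36.5 ± 2.48 to 22.5 ± 1.73 CPM (-0.70 ± 0.10), and of 30 replication genes 14 fell and 3 rose (1 on scaling by library totals alone; median -0.16). The G1 kinase CDK6 fell (390.4 ± 15.4 to 246 ± 12.6 CPM, -0.67 ± 0.05), while cyclin CCND1 (262 ± 14.5 to 412 ± 20.6 CPM, 0.65 ± 0.05) and the inhibitor CDKN1C (12.2 ± 2.44 to 25.5 ± 3.79 CPM, 1.04 ± 0.13) rose, in a list with 7 of 18 higher and 8 lower. Of 22 apoptosis genes 11 fell and 6 rose. Both the killer BIK (20.8 ± 3.15 to 2.75 ± 1.1 CPM, -2.83 ± 0.19) and the protector BCL2 (46 ± 5.07 to 18.4 ± 3.07 CPM, -1.32 ± 0.10) fell. Of 30 cytoskeletal genes 11 rose and 11 fell, and the intermediate filament VIM rose from 616 ± 34.1 to 1437 ± 87.96 CPM (1.22 ± 0.05).

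Genes at Alzheimer's disease risk loci, to which CD33 itself belongs, fell in 13 of 29 tested cases and rose in 7 (median -0.09). The sorting receptor SORL1 fell from 135 to 160.0 CPM (median 142) to 36.99 to 53.8 CPM (median 46.7) (-1.63 ± 0.07), and PTK2B, a focal adhesion kinase, from 332 to 389 CPM (median 352) to 139 to 166 CPM (median 157) (-1.19 ± 0.05). The precursor APP rose slightly (153 ± 4.58 to 199.7 ± 10.3 CPM, 0.38 ± 0.05), and the risk gene GRN was not called (1022 ± 65.6 and 961 ± 89.4 CPM). In the list of TREM2, TYROBP and MS4A genes 4 of 13 rose and 6 fell: MS4A6A rose (5.94 ± 1.31 to 8.97 ± 1.75 CPM, 0.60 ± 0.19), and ADAM17, the protease that sheds TREM2, fell (507 ± 9.64 to 366 ± 23 CPM, -0.47 ± 0.04).

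**Figure D4:**
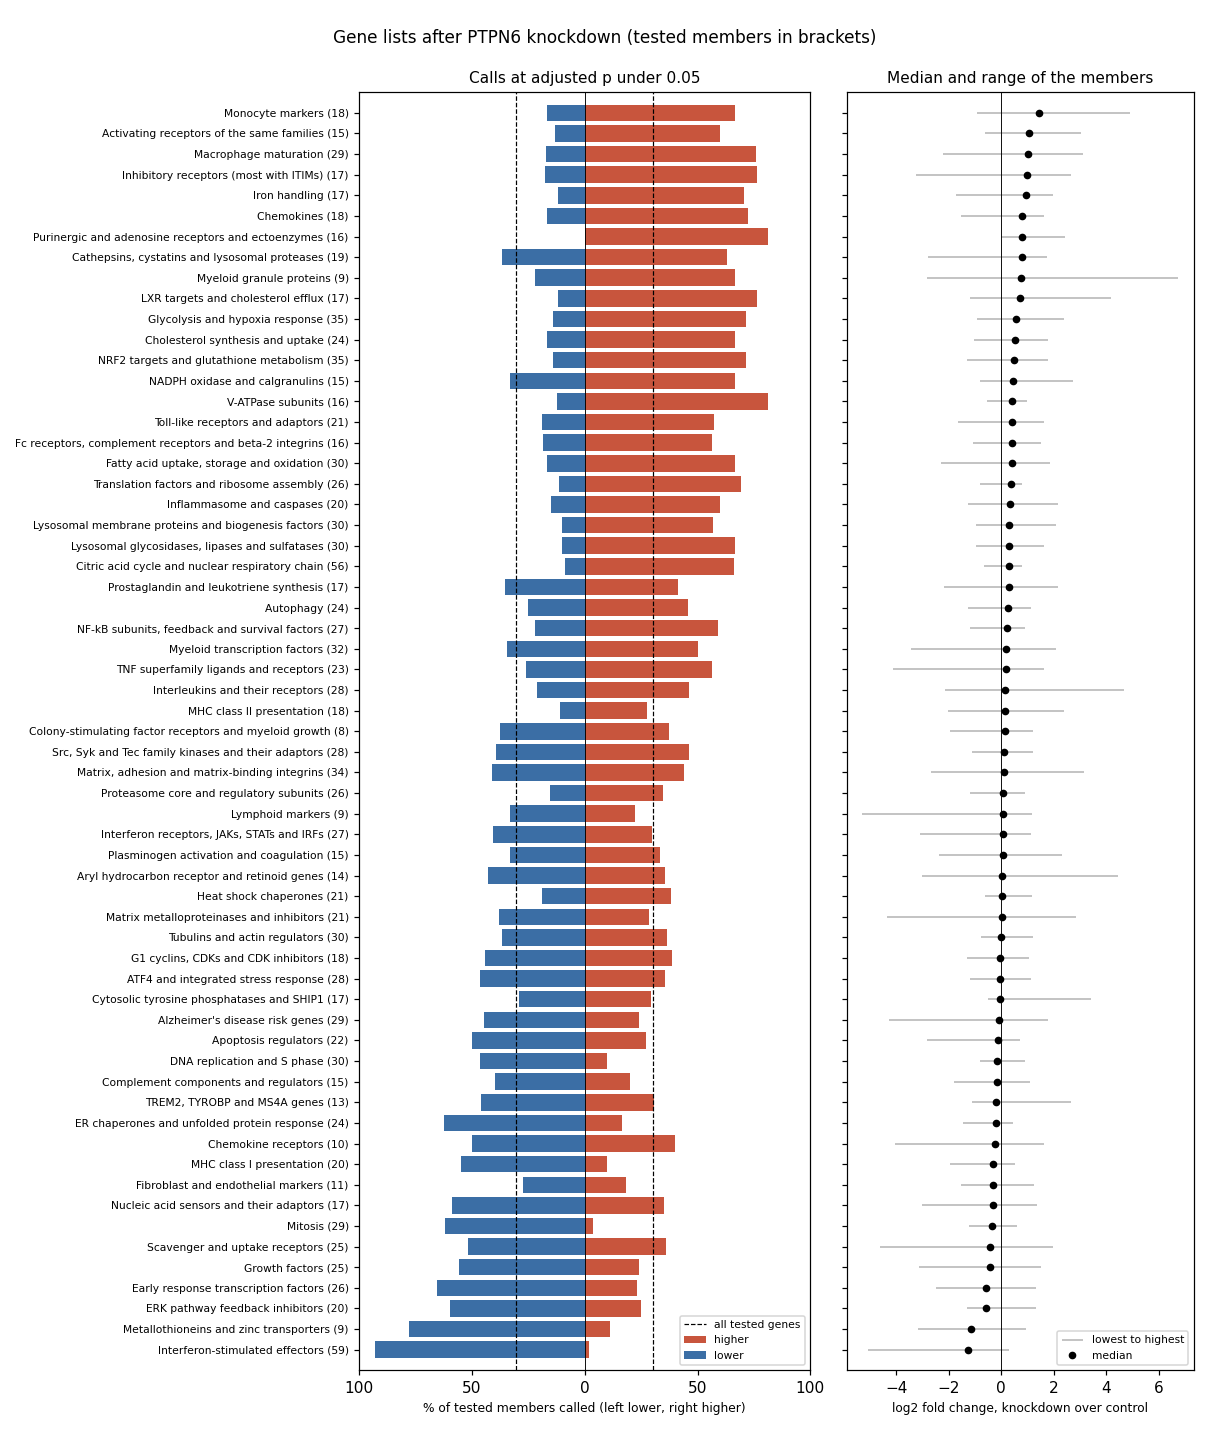
For each list with at least 8 tested members, the share of members called higher (right) or lower (left) and, in the right panel, the median and range of their log2 fold changes. Dashed lines mark the shares over all tested genes, 30.2% and 30.4%; interferon effectors reach furthest to the left, and monocyte markers have the highest median, 1.44.

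The effect in wild type was set against the effect of the same hairpin in the CD33 knockout line by testing the difference of the 2 effects. The 2 effects come from separate libraries, and those of the knockout line were shallower, at 2024032 to 3749258 counts. The difference was called for 3717 genes (28.4%), and the knockdown itself changed 5512 genes (42.1%) in the knockout line. Of the 7941 genes called in wild type 3829 were called the same way in the knockout line, 48.2% of the wild-type calls and 69.5% of the knockout calls, and 402 were called the opposite way. PTPN6 fell in both lines, without a called difference (-0.29 ± 0.22, edgeR adjusted p = 0.355), whereas the rise of CD33 differed (-0.75 ± 0.15, edgeR adjusted p = 3.32e-05; 0.22 ± 0.13 in the knockout line, where the gene is edited).

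Of the 24 largest changes in wild type the difference was called for 21, in each case toward a smaller or opposite effect in the knockout line. These genes were chosen for their size in wild type, which favours a smaller value in the other line. The difference was not called for MMP13 (1.23 ± 2.24), LRRC25 (-0.27 ± 0.48) and ROR2 (-0.44 ± 0.42). GNLY fell by 5.28 in wild type and changed by -1.06 ± 0.06 in the knockout line (difference 4.22 ± 0.10, edgeR adjusted p = 1.38e-63). KLF5 fell by 5.07 and changed by -0.65 ± 0.10 (difference 4.42 ± 0.19). HAND2 and AKR1C2, which lost most of their transcripts in wild type, were not called in the knockout line (-0.74 ± 0.69 and -0.52 ± 0.32). Among the rises, FCN1 and CYP27A1 were not called there (0.37 ± 1.16 and 0.26 ± 0.43). Levels in the knockout line are not given here. For genes not called there, too few counts and a missing response therefore cannot be told apart. CDCP1 turned around: it rose by 4.04 in wild type and fell in the knockout line (-0.89 ± 0.12, edgeR adjusted p = 5.35e-10), a difference of -4.93 ± 0.15 (edgeR adjusted p = 8.49e-54). PTPN22, which rose by 3.40 in wild type, differed by -4.81, so its estimate in the knockout line also lay below 0. FGL2 was near 0 in the knockout line and not called (-0.17 ± 0.21). IL1R2 and PTAFR rose in both lines, by less in the knockout (2.14 ± 0.15 and 2.24 ± 0.25).

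**Figure D5:**
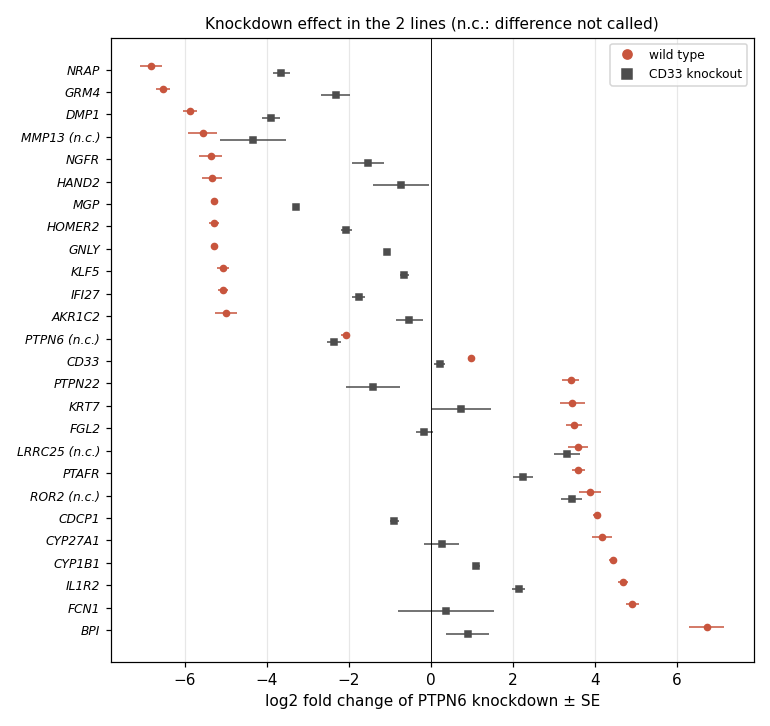
Log2 fold change ± SE of PTPN6 knockdown in wild type (circles) and in the CD33 knockout line (squares) for PTPN6, CD33 and the 24 largest changes in wild type, with n.c. where the difference was not called. Most squares lie nearer to 0 than the circle of the same gene. CDCP1, PTPN22 and FGL2 lie above 0 in wild type and below 0 in the knockout line, CDCP1 at 4.04 and -0.89.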

How the data were processed

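RNA of 24 labelled samples was read by QuantSeq, which sequences the 3' ends of polyadenylated transcripts, and 23 have a column in the deposited table. The deposited values are raw counts per gene, made by the authors with STAR 2.7.3a and featureCounts of Subread 2.0.0 on hg38, per the submitters' processing notes; the annotation release and strand setting are not given in the sources used here. Symbols and positions came from GENCODE release 29 (GRCh38) and promoters from RefSeq.

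The counts of all 23 libraries were fitted in R 4.3.3 with edgeR 4.0.16 (filterByExpr, TMM scaling, robust quasi-likelihood test, Benjamini-Hochberg adjustment over 13098 genes), and the fit was tested on simulated data. SE is the absolute log2 fold change divided by the square root of F. Exact permutation tests covered PTPN6 and CD33. Named genes were PTPN6 and CD33; the 12 largest called rises and falls with a mean of at least 5 CPM and groups that do not overlap; from each of 64 lists up to 4 called genes per direction by adjusted p and the 2 most abundant; and the 8 genes gaining and the 8 losing the most CPM. Some were left out for length, and some genes are not reported here. The comparison, its members and the lists were chosen with earlier results of these data known. Alternatives were DESeq2 1.42.0, other scalings and filters, a replicate block, fewer genes, wild-type libraries alone and leaving out each library. Intervals and floors cover counting error only, since no molecular identifiers are stated.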

Additional observations from a re-analysis of the deposited data

Results flagged for a closer look

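Of 580 groups of 6 values of genes in the text, 42 held a highest or lowest library whose gap to its neighbour, as a share of the group's range, passed Dixon's 95% critical value for 6 samples; chance passes about 1 in 20 groups. In WT_shCTRL replicate 2 it was the value of INSIG1 (0.748) and PTAFR (0.687). WT_shCTRL replicate 3 stood apart for DMP1 (0.741), KRT19 (0.722) and NRG1 (0.628). For WT_shCTRL replicate 4 the genes were BPI (1), LTA4H (0.645), NFKBIA (0.68) and PLAUR (0.703). In WT_shCTRL replicate 5 it was the value of ADAM17 (0.799), CTSS (0.636) and IFI16 (0.768). WT_shCTRL replicate 6 stood apart for CCR2 (0.643), EGR1 (0.644), GAPDH (0.668), HLA-B (0.681), IFNB1 (1), IL13RA1 (0.716), LTC4S (0.636), MAVS (0.721), PDGFA (0.845), S100A6 (0.766), TREM2 (0.637) and TYROBP (0.789). For WT_shPTPN6 replicate 1 the genes were CCND1 (0.752), CD3E (1), IER3 (0.706), NFKBIA (0.712) and RNASE6 (0.632). In WT_shPTPN6 replicate 2 it was the value of BMP8B (0.63) and MYC (0.647). WT_shPTPN6 replicate 3 stood apart for CMKLR1 (0.665) and HAND2 (0.647). For WT_shPTPN6 replicate 4 the genes were FCN1 (0.666), LILRA2 (0.721) and TFEB (0.717). In WT_shPTPN6 replicate 5 it was the value of LYN (0.659) and PSAP (0.633). WT_shPTPN6 replicate 6 stood apart for FTL (0.63), IL1R2 (0.643), PTPN12 (0.673) and THBD (0.627). The shares for BPI, IFNB1, CD3E and KRT19 come from libraries with 0 or a few counts.

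The knockdown effect differed between the 2 lines, by the test of the difference (edgeR adjusted p under 0.05), for 22 of 26 genes examined. The effect in the knockout line minus that in wild type, on the log2 scale, was positive for AKR1C2 (4.48), DMP1 (1.98), GNLY (4.22), GRM4 (4.21), HAND2 (4.60), HOMER2 (3.23), IFI27 (3.31), KLF5 (4.42), MGP (2.01), NGFR (3.83) and NRAP (3.19), which fell in wild type. It was negative for BPI (-5.82), CD33 (-0.75), CDCP1 (-4.93), CYP1B1 (-3.34), CYP27A1 (-3.90), FCN1 (-4.54), FGL2 (-3.65), IL1R2 (-2.55), KRT7 (-2.71), PTAFR (-1.36) and PTPN22 (-4.81), which rose in wild type.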

How the results depend on the processing

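Under the alternatives run, no named gene's called change reversed. DESeq2 called 3868 genes higher and 3901 lower, RLE scaling 3962 and 3983, the stricter filter 3823 and 3889, wild-type libraries alone 3944 and 3916, and a table without mitochondrial and ribosomal protein genes 3918 and 3945. Scaling by library totals alone gave 3216 and 4707, with the median of all genes at -0.0832. Leaving out 1 library gave 3869 to 3966 higher and 3723 to 3930 lower, a PTPN6 difference of -2.1373 to -2.0225 and a CD33 difference of 0.9279 to 0.9914 (log2), and 3454 to 3672 genes whose effect differed between lines. Without a low-count filter 31634 genes were tested, and 1147 were at least 2-fold higher and 1940 lower.

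Library totals alone moved these list counts: tyrosine phosphatases lower 8, interferon effectors higher 0, ERK feedback inhibitors higher 3, lysosomal hydrolases lower 6, lysosomal membrane proteins lower 6, citric acid cycle and respiratory chain lower 8, and replication higher 1. In wild-type libraries alone iron handling had 1 lower gene and lymphoid markers 1 higher, and the medians became 0.7127 for activating receptors, 0.6874 for chemokines, 0.2499 for interleukins, -0.1225 for prostaglandin and leukotriene genes, -0.7662 for growth factors, -0.0048 for colony-stimulating factor receptors, 0.6303 for granule proteins and 1.26 for monocyte markers. The fit to wild-type libraries alone filtered the genes again and tested 12658, against 13098 in the main fit, so the tested list members can differ. The cause of these shifts was not tested.

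Replicate numbers did not pair the libraries (correlation of same-numbered deviations -0.035 to 0.0224). With the replicate number as a block 3918 genes rose, 3960 fell and 3626 differed between lines. Depth limits genes under 1 CPM, of which 23.4% were called.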
